A study of Mus musculus with 15 samples.

Results

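The nuclear genes for the subunits of the 5 oxidative phosphorylation complexes were followed in mature dermal adipocytes, the fat cells of the skin, at 5 ages of the mouse. Members were chosen by gene name, not by their values: names beginning Nduf for complex I, Sdha, Sdhb, Sdhc and Sdhd for complex II, Uqcr and Cyc1 for complex III, Cox4i, Cox5, Cox6, Cox7 and Cox8 for complex IV and Atp5 for complex V. Of 35275 genes in the deposited table, 93 were members: 45 in complex I, 4 in complex II, 9 in complex III, 18 in complex IV and 17 in complex V. The 45 genes of complex I include 7 assembly factors (Ndufaf names), and Ndufa4 and Ndufa4l2, counted there by name, are known as complex IV proteins. Another 3 names of pseudogenes were left out.

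RNA-seq libraries were made in triplicate from C57BL/6 animals of 5 postnatal ages, written P21, P25, P29, P35 and P49 for the day after birth, 15 in all. The tissue was digested with collagenase IV and dispase II and the fat cells were collected by flotation, which selects no cell type by a marker. The labels give no treatment, genetic change or sex, and age is the only difference between groups that they state. Whether the 3 libraries of an age are separate animals or pools is not said, so the p-values cover only library-to-library spread, part of which can be technical. Values are FPKM (fragments scaled to gene length and to the total counted to genes), and tests compare log2(FPKM + 1) between ages.

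Oxidative phosphorylation moves electrons from NADH and succinate to oxygen and stores the energy as a proton gradient across the inner mitochondrial membrane. Complex I oxidizes NADH, complex II oxidizes succinate and is also an enzyme of the TCA cycle, complex III passes electrons from ubiquinol to cytochrome c, complex IV reduces oxygen, and complex V, the ATP synthase, lets protons back to make ATP. Most subunits are nuclear genes, while the core of complexes I, III, IV and V also needs proteins made from mitochondrial DNA. White fat cells use their mitochondria for ATP and for citrate that feeds fatty acid synthesis, and brown fat cells are known for uncoupled respiration through Ucp1.

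Some members share short sequences at their starts. RefSeq promoter windows of GRCm38.p6, from 250 bases before to 50 bases after the start, were matched for 73 of the 93 members. On either strand, the core of the NRF1 site (GCGCATGCG) was found in 10 of these 73 windows (13.7%, against 1.95% of the 27025 genes with a window), the ETS core bound by GABPA (CCGGAAGT) in 5 (6.85% against 4.31%) and the YY1 core (AAGATGGCG) in 7 (9.59% against 1.64%). At least 1 of the 3 was present in 21 members (28.8% against 7.48%): 10 of 39 in complex I, 0 of 3 in complex II, 3 of 5 in complex III, 2 of 13 in complex IV and 6 of 13 in complex V. The background holds every gene with a window, expressed here or not, while most members were expressed. The share of genes with these cores among expressed genes is not given. The following stretches show these cores in members of complexes I, III, IV and V, 5′ to 3′ on the gene's strand, with the core in capitals. NRF1 and YY1 are regulators of nuclear mitochondrial genes, and the NRF1 core is nearly its own reverse complement, so that in 5 of the 7 stretches it matches both strands with an overlap. The first 5 stretches hold the NRF1 core, Uqcr11 the ETS core and Atp5j the YY1 core.
Ndufaf4: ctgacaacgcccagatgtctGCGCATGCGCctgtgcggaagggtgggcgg
Ndufa11: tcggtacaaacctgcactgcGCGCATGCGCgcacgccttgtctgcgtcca
Cox6a1: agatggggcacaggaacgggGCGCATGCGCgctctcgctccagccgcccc
Atp5g2: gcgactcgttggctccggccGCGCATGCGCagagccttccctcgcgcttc
Atp5k: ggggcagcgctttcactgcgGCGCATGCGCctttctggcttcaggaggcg
Uqcr11: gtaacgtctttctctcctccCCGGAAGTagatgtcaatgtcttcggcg
Atp5j: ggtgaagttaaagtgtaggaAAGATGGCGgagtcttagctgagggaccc
They lie at chr4:24897950-24897999 (forward strand) for Ndufaf4, chr17:56717682-56717731 (forward strand) for Ndufa11, chr5:115349091-115349140 (reverse strand) for Cox6a1, chr15:102671060-102671109 (reverse strand) for Atp5g2, chr5:108434420-108434469 (reverse strand) for Atp5k, chr10:80406860-80406907 (reverse strand) for Uqcr11 and chr16:84835036-84835084 (reverse strand) for Atp5j. A match is a description of the letters and does not show binding. Of the 21 members with a match 12 rose from P21 to P25 by the limma test, of the 50 tested with a window and no match 26 did, and of the 19 tested with no window 4 did. Of all 12259 genes tested 8.38% rose in that comparison. These counts hold all 15 libraries and are not given without P25 replicate 2, a low library described below.

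Most members were abundant transcripts. Averaged over the 15 libraries, 38 members stood at 100 FPKM or more, 40 between 10 and 100 FPKM, 12 between 1 and 10 FPKM and 3 under 1 FPKM. The median member level was 59.7 FPKM in complex I, 102 in complex II, 136 in complex III, 83.1 in complex IV and 125 in complex V. The highest of each were Ndufa4 (313 FPKM), the flavoprotein Sdha (200.2), Uqcr11 (211), Cox8a (717) and the catalytic beta subunit Atp5b (818). Complex III was the most even, from 97.5 FPKM for Uqcrc2 to that of Uqcr11. Ndufb2, a membrane arm subunit of complex I, averaged only 0.359 FPKM (22 to 78 reads per library), and the tissue isoforms Cox7b2 and Cox8c were listed at 0 except for 1 read of Cox7b2 in 1 library. These 3 members fell under 1 FPKM in more libraries than the filter allowed (1 FPKM or more in at least 3 libraries). Whether reads of Ndufb2 were lost in the submitters' counting could not be checked, so its low value may not be its true level. The remaining 90 members, 44 of complex I and 16 of complex IV among them, were tested among 12259 genes, and 86 of them reached 1 FPKM in all 15 libraries.

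**Figure D1:**
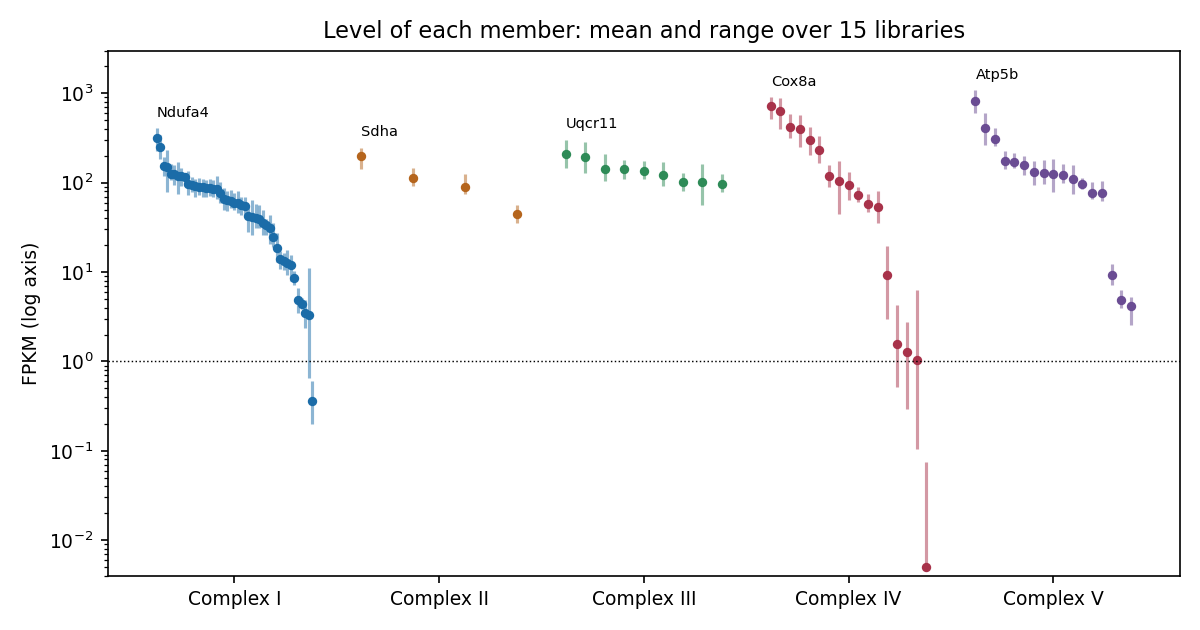
Mean level (point) and range over the 15 libraries (line) of each member on a log FPKM axis, ordered by mean within each complex, with the highest named and a dotted line at 1 FPKM. Cox8c, at 0 in every library, is not drawn, and the Cox7b2 line is cut at the bottom of the axis. Most members of every complex sit above 10 FPKM.

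Reads counted to genes, recovered from the FPKM values, were 23214103 to 32219574 per library, at which 3 reads on a gene of 1 kb amount to 0.0931 to 0.129 FPKM. The adipocyte gene Adipoq was between 1406 and 3282 FPKM, and none of the 8 adipocyte markers was at 0 in any library. Ucp1 was at 0 in 9 libraries and at most 0.606 FPKM. RNA of other cells was present and uneven. An index of it, the mean log2(FPKM + 1) of tested endothelial, nerve and lymphocyte markers, was 3.62 to 4.50 at P21, 2.498, 3.95 and 2.27 in P25 replicates 1, 2 and 3, 2.295 to 3.19 at P29, 2.48 to 3.05 at P35 and 2.38 to 2.86 at P49. P25 replicate 2 stood apart from the other P25 libraries on this index and on the members, so results that rest on it are given with and without it. It was thus picked in part on the values tested, and counts without it are no separate support. Replicate 2 also had the highest index of its age at P29, P35 and P49, but the lowest at P21. Its summed member FPKM was the lowest of its age at P29 and P35 and the highest at P21 and P49. Fits without P25 replicate 2 keep these other libraries. In such bulk samples fewer cells of a type and less RNA per cell cannot be told apart.

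From P21 to P25 members of complexes I, III, IV and V rose, as did 1 member of complex II, and none of the tested members fell. Of 90 tested members 42 rose and 0 fell, where 8.38% of all 12259 genes rose and 10.5% fell. The median log2 difference was 0.41 over members and -0.07 over all genes tested, and 83 of 90 member differences were above 0. In FPKM the median member was 1.354-fold higher at P25, 21 members were more than 1.5-fold higher, and the highest ratio was 2.31 for Cox8b. Rises were called for 18 of 44 members of complex I, 1 of 4 of complex II, 6 of 9 of complex III, 8 of 16 of complex IV and 9 of 17 of complex V, with median log2 differences of 0.37, 0.36, 0.52, 0.48 and 0.44. Differences between complexes were not tested. All 3 P25 libraries lay above all 3 P21 libraries for 31 of 90 members (11.7% of all genes did so): 11 in complex I, 0 in complex II, 5 in complex III, 7 in complex IV and 8 in complex V.

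P25 replicate 2 was the low library of its age. It lay below both other P25 libraries for 84 of 90 members, against 46.0% of all genes. It lay within or below the P21 range for 57 of 90 members, a smaller share than the 70.2% of all genes. P25 replicates 1 and 3 lay above all P21 libraries for 83, against 26.8% of all genes. Summed over the 93 members, expression was 8821, 9992 and 8232 FPKM at P21, 13493, 9669 and 14499 at P25, 14009, 10815 and 12027 at P29, 11435, 10647 and 11310.0 at P35 and 9901, 10184 and 9940.0 at P49. The sums of P25 replicate 2 and of all 3 P49 libraries lay inside or near the P21 range, and those of P25 replicates 1 and 3 and P29 replicate 1 were the highest. As a share of all reads, members took 0.992% at P21, 1.36% at P25, 1.31% at P29, 1.19% at P35 and 1.08% at P49 (means, n = 3; SD 0.0909, 0.275, 0.168, 0.0602 and 0.0177).

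Without P25 replicate 2, 81 of 90 members rose and 2 fell, while 18.4% of all genes rose and 27.6% fell. Leaving out a library that was the lowest of P25 for 84 of 90 members raises their P25 means, so part of this gain is built in. The 81 were 42 in complex I, 4 in complex II, 9 in complex III, 11 in complex IV and 15 in complex V, and the median log2 difference was 0.56. All 42 members called with every library were called here too. The count depended on each of 5 libraries: it was 18 without P21 replicate 1, 11 without P21 replicate 3, 17 without P25 replicate 1 and 7 without P25 replicate 3. With the index of other cells as a covariate 6 members passed, 5 of them among the 42, where 7.87% of all genes rose, and the median log2 difference over members was 0.13. Of the P25 libraries only replicate 2 (3.95) lay in the P21 range of the index (3.62 to 4.50), so age and the index are largely confounded. With only the 6 libraries of the 2 ages in the fit 0 members passed. The shares of all genes called in that fit and without P21 replicates 1 or 3 or P25 replicates 1 or 3 are not given. Lost calls in these fits may thus not be particular to the members. In the same comparison, without P25 replicate 2, 6 of 6 endothelial, 5 of 5 macrophage, 5 of 6 fibroblast, 4 of 5 pericyte, 3 of 3 nerve, 3 of 3 erythroid, 1 of 1 lymphocyte and 9 of 10 tested skeletal muscle markers fell, while the members rose. The 6 endothelial markers, none at 0 in any library, summed to 121 to 248 FPKM at P21 and 40.7, 158 and 31.7 in the P25 replicates (Pecam1 -1.47 ± 0.49, adjusted p = 0.0566). Macrophage markers summed to 266 to 468 FPKM at P21 and 79.95 to 321 at P25, nerve markers to 28.9 to 75.1 and 11.2 to 34.1, and erythroid markers to 182 to 295 and 58.6 to 165, none of them at 0 in any library. The 8 lymphocyte markers summed to 6.74 to 10.7 and 2.72 to 9.63, with Cd3g and Cd8a each at 0 in 9 libraries. With all libraries, 1 endothelial (Cldn5), 1 macrophage (Cd163) and 1 erythroid (Alas2) marker fell, 0 fibroblast, nerve, lymphocyte and skeletal muscle markers passed, and 1 pericyte (Cspg4) and 2 hair markers (Krt25 and Krt71) rose.

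**Figure D2:**
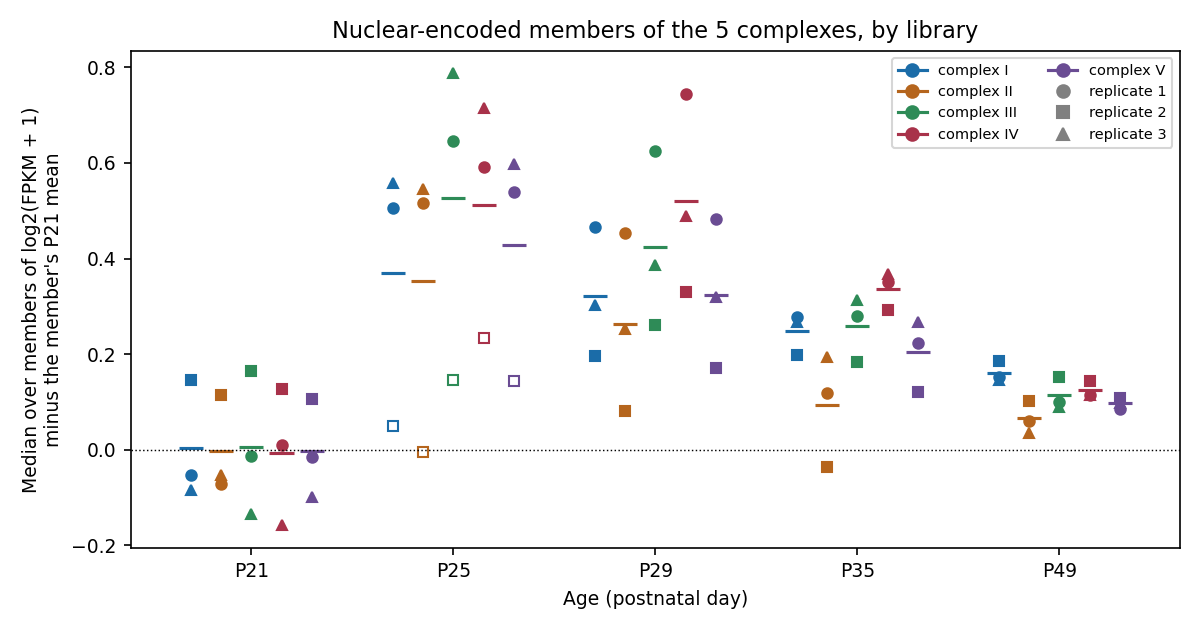
For each complex and library, the median over tested members of log2(FPKM + 1) minus the member's P21 mean, by age. Symbols are libraries (open squares mark P25 replicate 2), short lines are means of the 3 libraries, and P25 replicates 1 and 3 stand at or above 0.50 in every complex while P25 replicate 2 stands at 0.23 or lower.

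In complex I, 17 of 37 subunit names and 1 of 7 assembly factors rose at P25. The largest rises in complex I were Ndufb6 and Ndufb3, accessory subunits of the membrane arm. Ndufb6 (ENSMUSG00000071014, chromosome 4, 40270591 to 40279421, GRCm38) was at 28.0, 33.8 and 26.2 FPKM at P21, 50.1, 39.6 and 63.3 at P25, 60.2, 38.3 and 48.1 at P29, 42.8, 44.8 and 39.8 at P35 and 34.7, 35.8 and 35 at P49. All libraries after P21 lay above the highest P21 library, and P25 rose over P21 (log2 difference ± SE 0.76 ± 0.17, adjusted p = 0.0109). Ndufb3 was at 77.9, 88.9 and 74.5 FPKM at P21, 140.3, 96.3 and 169 at P25, 163, 135 and 134 at P29, 149, 141 and 127 at P35 and 96.4, 102 and 104 at P49. Again no later library fell into the P21 range, and the rise at P25 passed (log2 difference 0.71 ± 0.17, adjusted p = 0.0131). Ndufa4, the most abundant member under the Nduf name, was at 242, 288 and 228 FPKM at P21, 392, 260.0 and 406 at P25, 388, 307 and 335 at P29, 334, 315 and 337 at P35 and 281, 294 and 294 at P49. P25 replicate 2 lay within the P21 range of Ndufa4 while the other P25 libraries were above it, and the difference did not pass (log2 0.46 ± 0.16, adjusted p = 0.0578, but 0.66 and adjusted p = 0.00067 without P25 replicate 2).

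Other complex I subunits that rose were Ndufa1, Ndufa11, Ndufab1, Ndufb7, Ndufs5, Ndufa8, Ndufs4, Ndufc1, Ndufa10, Ndufb8, Ndufb5, Ndufs8, Ndufs6, Ndufv2 and Ndufa13, by log2 0.37 to 0.68. They come from several modules: Ndufv2 from the NADH-binding module, Ndufs8 from the arm that carries iron-sulfur centres, and Ndufb7 and Ndufb8 from the membrane arm. Ndufab1 is also the acyl carrier protein of mitochondrial fatty acid synthesis. Among assembly factors Ndufaf4, singled out after its values were seen, was at 2.37, 2.45 and 2.91 FPKM at P21, 4.82, 3.68 and 3.95 at P25, 4.32, 4.12 and 3.75 at P29, 3.55, 3.96 and 3.52 at P35 and 2.97, 3.36 and 3.03 at P49. Its P21 libraries were the lowest of the 15, though the highest of them was close to the P49 libraries, and the rise at P25 passed (log2 difference 0.52 ± 0.10, adjusted p = 0.00423). For the other 6 assembly factors (Ndufaf1, Ndufaf2, Ndufaf3, Ndufaf5, Ndufaf6 and Ndufaf7) differences were between 0.11 and 0.37 and did not pass. Without P25 replicate 2, 6 of the 7 assembly factors rose, all but Ndufaf6.

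Complex II has 4 subunits, all of them nuclear. Sdha, the flavoprotein that oxidizes succinate, was at 177, 208 and 181 FPKM at P21, 247, 143 and 243 at P25, 233, 189 and 215 at P29, 203, 164 and 193 at P35 and 205, 201 and 203 at P49. P25 replicate 2 was the lowest of all 15 libraries for Sdha and the other 2 P25 libraries were the highest, and the difference from P21 did not pass (log2 difference 0.12 ± 0.18, adjusted p = 0.644). Sdhb, the iron-sulfur subunit, was at 99.6, 109.8 and 96.2 FPKM at P21, 146, 99.5 and 147 at P25, 138, 102 and 118 at P29, 111, 92.7 and 115 at P35 and 103, 109.8 and 100.5 at P49. Its P25 replicate 2 lay within the P21 range and the other 2 above it, and Sdhb did not pass (log2 difference 0.34 ± 0.15, adjusted p = 0.135). The membrane anchor Sdhc was at 35.7, 40.9 and 36.3 FPKM at P21, 54.1, 39.0 and 56.0 at P25, 54.1, 45.4 and 48.3 at P29, 47.8, 43.5 and 48.0 at P35 and 40.4, 41.8 and 39.3 at P49. P25 replicate 2 of Sdhc lay within the P21 range and the other 2 above it, and Sdhc was the only member of complex II that passed (log2 difference 0.38 ± 0.12, adjusted p = 0.0465). Sdhd, the other anchor, was at 75.4, 84.3 and 78.5 FPKM at P21, 124, 80.5 and 118 at P25, 110.2, 88.5 and 97.4 at P29, 84.9, 82.8 and 92.2 at P35 and 79.97, 83.0 and 79.6 at P49. Again P25 replicate 2 lay among the P21 libraries, and Sdhd did not pass (log2 difference 0.41 ± 0.14, adjusted p = 0.0566). Without P25 replicate 2 all 4 rose, by log2 0.38 for Sdha, 0.52 for Sdhb, 0.54 for Sdhc and 0.60 for Sdhd.

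Complex III had 6 of 9 members called. Uqcrq (ENSMUSG00000044894, chromosome 11, 53427922 to 53430831, GRCm38), a small subunit next to cytochrome b, was at 74.4, 77.5 and 56.3 FPKM at P21, 136, 99.0 and 162 at P25, 135, 95.7 and 112 at P29, 108, 99.8 and 103 at P35 and 83.1, 87.9 and 84.8 at P49. Every library after P21 was above every P21 library, and the mean was highest at P25 (log2 difference 0.91 ± 0.17, adjusted p = 0.00515). Uqcr10, another small subunit, was at 144, 161 and 128 FPKM at P21, 228, 189 and 287 at P25, 252, 186 and 218 at P29, 198, 200.4 and 186 at P35 and 168, 169 and 169 at P49. Again no later library overlapped P21 (log2 difference 0.68 ± 0.15, adjusted p = 0.00874). Uqcr11, the most abundant member of complex III, was at 157, 172 and 148 FPKM at P21, 258, 187 and 301 at P25, 280.2, 203 and 225 at P29, 230.1, 218 and 226 at P35 and 184, 189 and 185 at P49. Its later libraries too all lay above P21, and P25 rose (log2 difference 0.62 ± 0.16, adjusted p = 0.0183). The catalytic Cyc1 (cytochrome c1, log2 difference 0.56 ± 0.18, adjusted p = 0.0451) and Uqcrfs1 (the Rieske iron-sulfur protein, 0.52 ± 0.15, adjusted p = 0.0277) rose, as did the hinge protein Uqcrh (0.42 ± 0.12, adjusted p = 0.0334). The core proteins Uqcrc1 (0.35 ± 0.15, adjusted p = 0.122) and Uqcrc2 (0.31 ± 0.15, adjusted p = 0.158) and the small Uqcrb (0.39 ± 0.13, adjusted p = 0.0576) did not pass. All 9 had their highest mean at P25, and without P25 replicate 2 all 9 rose.

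Complex IV held the largest rise of all members, that of Cox8b, and 8 of its 16 tested members rose. Cox8b (ENSMUSG00000025488, chromosome 7, 140898943 to 140900446, GRCm38), the isoform of subunit 8 known from muscle and brown fat, was at 70.1, 48.0 and 44.4 FPKM at P21, 134, 64.1 and 177 at P25, 155, 99.7 and 114 at P29, 131, 115 and 119 at P35 and 103, 95.3 and 86.6 at P49. P25 replicate 2 lay within the P21 range, the other P25 libraries and all later ones lay above it, and the log2 difference was 1.10 ± 0.30, adjusted p = 0.0256 (1.52 without P25 replicate 2). Cox5a, a subunit on the matrix side, was at 35.6, 45.9 and 38.9 FPKM at P21, 65.5, 55.3 and 81.3 at P25, 70.3, 48.2 and 50.9 at P29, 60.5, 51.8 and 52.2 at P35 and 47.0, 46.0 and 43.8 at P49. The P25 libraries of Cox5a did not overlap P21, while P49 replicate 3 did (log2 difference 0.72 ± 0.16, adjusted p = 0.00959). Cox6b1, Cox5b, Cox7b, Cox7c, Cox7a2 and Cox6c also rose, by log2 0.38 to 0.68. Cox8a, the common isoform and the most abundant member of complex IV, was at 558, 681 and 521 FPKM at P21, 830.5, 569.8 and 884 at P25, 901, 732 and 795 at P29, 766, 715 and 757 at P35 and 663, 689.7 and 693 at P49. P25 replicate 2 lay among the P21 libraries, and Cox8a did not pass (log2 difference 0.36 ± 0.16, adjusted p = 0.122). Cox4i1 (0.44 ± 0.15, adjusted p = 0.0597), Cox6a1 (0.50 ± 0.17, adjusted p = 0.0529) and Cox7a2l (-0.13 ± 0.08, adjusted p = 0.279), a supercomplex assembly factor named as a subunit, did not pass.

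In complex V, 9 of 17 members rose. Atp5g3, which encodes the c subunit of the membrane rotor, was at 303, 342 and 266 FPKM at P21, 532, 367 and 599 at P25, 539, 403 and 452 at P29, 425, 385 and 427 at P35 and 358, 369 and 362 at P49. All later libraries lay above P21 (log2 difference 0.69 ± 0.17, adjusted p = 0.0148). Atp5o, the stalk subunit known as the oligomycin sensitivity conferring protein, was at 87.4, 97.9 and 75.3 FPKM at P21, 149.8, 108 and 157 at P25, 144, 112 and 133 at P29, 114, 107 and 115 at P35 and 90.3, 88.7 and 88.5 at P49. Its P25, P29 and P35 libraries lay above all P21 libraries and its P49 libraries lay inside the P21 range (log2 difference for P25 0.65 ± 0.14, adjusted p = 0.0091). Atp5b, the catalytic subunit, was at 653, 743 and 608 FPKM at P21, 1036, 712 and 1076 at P25, 1079, 781 and 951 at P29, 843, 716 and 834 at P35 and 712, 768 and 753 at P49. P25 replicate 2 overlapped P21 and Atp5b did not pass (log2 difference 0.48 ± 0.16, adjusted p = 0.0596, but 0.66 and adjusted p = 0.0018 without that library). The remaining rises were Atp5g1, Atp5k, Atp5j2, Atp5j, Atp5d, Atp5l and Atp5e, by log2 0.41 to 0.59. Atp5s and Atp5sl, proteins with an Atp5 name that are not rotor or stalk subunits, differed by log2 -0.01 and -0.14 and did not pass.

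**Figure D3:**
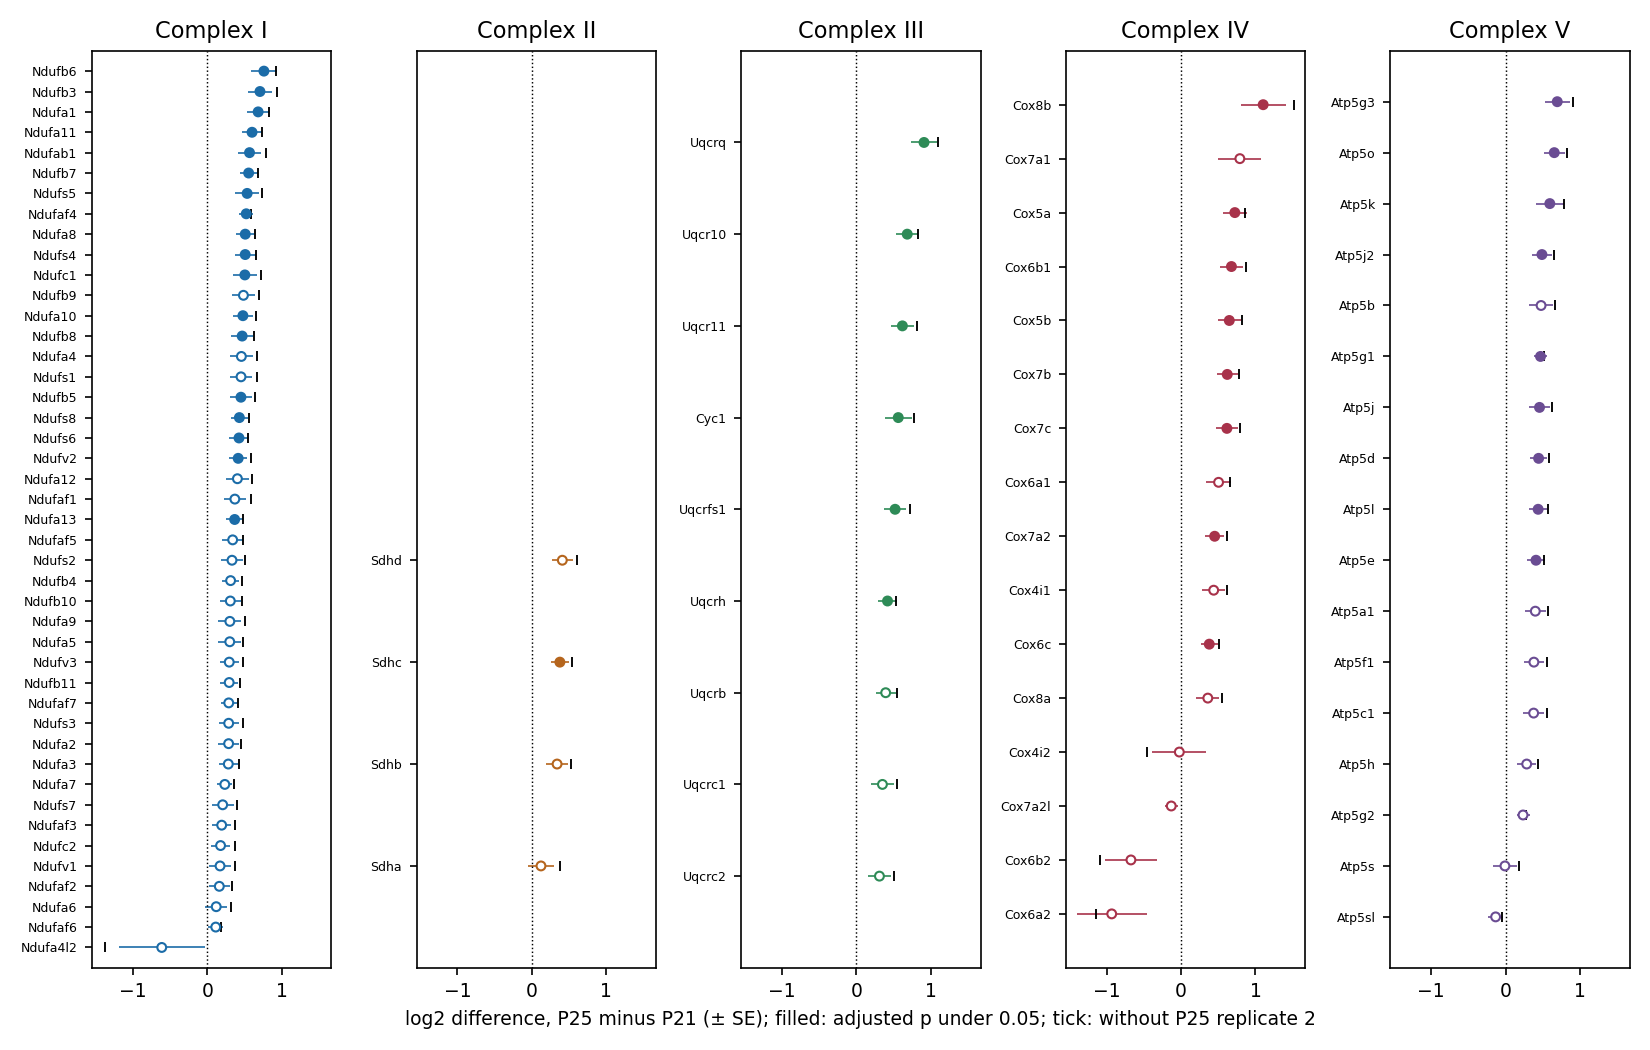
Log2 difference of P25 minus P21 in log2(FPKM + 1) for the 90 tested members, by complex, with the standard error as a bar; filled points passed an adjusted p of 0.05 and ticks give the value without P25 replicate 2. Most points sit above 0 and the ticks lie farther to the right for most members, with Ndufa4l2, Cox6b2 and Cox6a2 farthest below 0.

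Several subunits have a common gene and a second gene used in certain tissues or conditions, and in each such pair here the common gene was the higher. Cox8b made up 11.2, 6.59 and 7.85 percent at P21, 13.9, 10.1 and 16.7 at P25, 14.7, 12.0 and 12.6 at P29, 14.6, 13.8 and 13.6 at P35 and 13.4, 12.2 and 11.1 at P49 of the Cox8a and Cox8b sum in FPKM. The share was lowest in P21 replicates 2 and 3, and all later libraries except P25 replicate 2 and P49 replicate 3 stood above the P21 range. Cox7a1, the muscle and brown fat isoform of subunit 7a, was at 8.68, 6.57 and 3.81 FPKM at P21, 9.86, 11.3 and 12.7 at P25, 19.6, 9.69 and 15.5 at P29, 7.93, 13.4 and 9.81 at P35 and 3.02, 3.38 and 5.12 at P49. The 3 P25 libraries lay just above the P21 range, with replicate 2 among them, but the difference did not pass (log2 0.79 ± 0.29, adjusted p = 0.0734), and the P49 libraries lay below all P25, P29 and P35 libraries. Its common partner Cox7a2 rose at P25 (log2 difference 0.45 ± 0.13, adjusted p = 0.0331).

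The other second isoforms were low and uneven between libraries. Ndufa4l2, a hypoxia-induced relative of Ndufa4, was at 6.20, 4.86 and 5.46 FPKM at P21, 1.31, 11.2 and 1.705 at P25, 0.975, 4.29 and 1.32 at P29, 1.21, 4.08 and 2.26 at P35 and 1.80, 2.61 and 0.659 at P49. P25 replicate 2 was the highest of the 15 libraries and the other P25 libraries lay below all P21 libraries (log2 difference -0.61 ± 0.58, adjusted p = 0.463, but -1.38 and adjusted p = 0.0226 without P25 replicate 2). Cox4i2, the isoform of subunit 4 linked to low oxygen, was at 2.55, 1.55 and 1.79 FPKM at P21, 0.856, 4.29 and 1.45 at P25, 1.01, 3.06 and 1.04 at P29, 0.823, 1.45 and 1.27 at P35 and 0.519, 1.41 and 0.672 at P49. Here too P25 replicate 2 was the highest library and P29 replicate 2 the next (log2 difference -0.02 ± 0.36, adjusted p = 0.969; with the index of other cells as a covariate it was 0.87, adjusted p = 0.0169). The 5 pericyte markers summed to 57.3 to 100.7 FPKM at P21 and 53.9 to 108 at P25, highest in P25 replicate 2; none was at 0. Fibroblast markers summed to 6129.6 to 9526 FPKM at P21, 2243, 14495 and 2822 in the P25 replicates and at most 3135 FPKM at P29, and none was at 0. The part of these cells in the levels of Ndufa4l2 and Cox4i2 was not tested.

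Cox6a2, the isoform of subunit 6a of striated muscle, was at 6.30, 0.981 and 0.703 FPKM at P21, 0.106, 1.06 and 0.560 at P25, 0.237, 0.447 and 0.834 at P29, 0.851, 1.36 and 0.142 at P35 and 1.03, 0.362 and 0.748 at P49 (2 to 122 reads). P21 replicate 1 stood alone above the rest (log2 difference -0.93 ± 0.47, adjusted p = 0.174). The 12 skeletal muscle markers summed to 400.2, 92.1 and 53.4 FPKM at P21 and 27.8, 85.7 and 26.3 at P25, with the same library highest, and Tnnc2 was at 0 in 11 libraries and Myh2 in 1 (Acta1 -1.49 ± 0.60, adjusted p = 0.0982; Ckm -1.47 ± 0.49, adjusted p = 0.0554). The part of muscle RNA in the level of Cox6a2 was not tested. Cox6b2, known from testis, was at 2.79, 1.69 and 2.44 FPKM at P21, 0.596, 2.63 and 0.490 at P25, 0.6001, 0.816 and 0.649 at P29, 0.295, 1.87 and 0.743 at P35 and 1.88, 0.611 and 1.14 at P49 (4 to 48 reads). P25 replicate 2 lay with P21 and the other P25 libraries below it (log2 difference -0.67 ± 0.35, adjusted p = 0.187, but -1.09 and adjusted p = 0.0112 without P25 replicate 2). Ndufa4l2 and Cox6b2 were thus the 2 members that fell without that library.

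**Figure D4:**
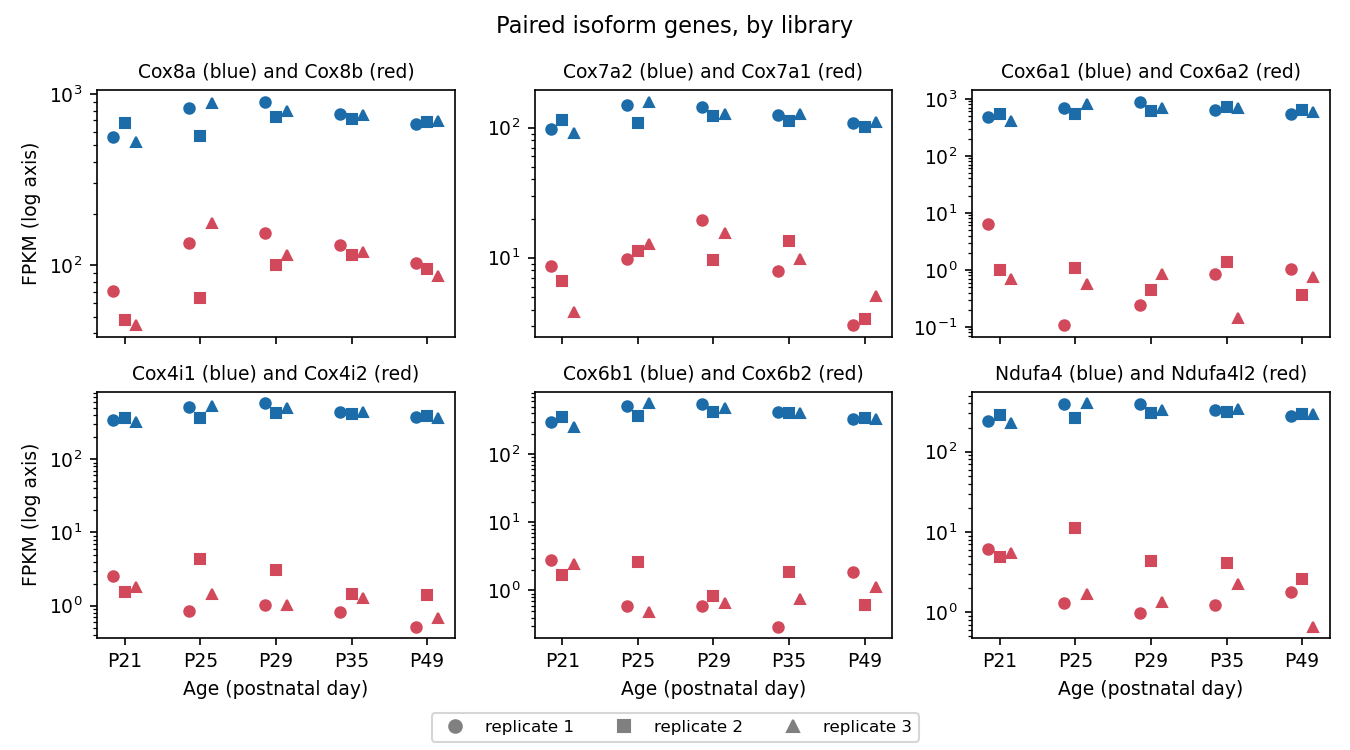
FPKM of 6 isoform pairs by age on log axes, common gene in blue and second gene in red, with 1 symbol per library. The common genes sit above their partners in every library, and P25 replicate 2 (square) is the highest library for Cox4i2 and Ndufa4l2.

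A set of 3 genes encodes the same c subunit of the ATP synthase with different targeting peptides. Atp5g3 supplied 75.8, 76.2 and 73.5 percent at P21, 81.3, 76.6 and 82.8 at P25, 81.7, 79.6 and 81.8 at P29, 81.2, 80.3 and 80.9 at P35 and 76.9, 78.2 and 79.0 at P49 of their sum in FPKM. Every later library stood above the P21 range, narrowly so P25 replicate 2 and P49 replicate 1. Atp5g1, the least abundant of them, was at 8.43, 7.81 and 7.11 FPKM at P21, 10.9, 10.3 and 12.2 at P25, 11.4, 9.86 and 9.95 at P29, 8.53, 9.46 and 9.56 at P35 and 7.43, 8.28 and 7.08 at P49. The P25 libraries, replicate 2 included, lay above all P21 libraries, and the P49 libraries overlapped P21 (log2 difference for P25 0.47 ± 0.09, adjusted p = 0.00473). Atp5g2 did not pass (log2 difference 0.23 ± 0.09, adjusted p = 0.0802). The deposited gene lengths, 4715 bases for Atp5g1 and 862 for Atp5g3, enter these shares.

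After P25 no step from 1 age to the next passed for any member. From P25 to P29, 0 of 90 members changed (0.253% of all genes rose and 0.147% fell), with 1 member at an unadjusted p under 0.05 and 0 by limma voom on the recovered reads. From P29 to P35, 0 members changed (0% of all genes rose and 0% fell), with 0 at an unadjusted p under 0.05 and 0 by voom. From P35 to P49, 0 members changed (0.245% rose and 0.318% fell), with 4 at an unadjusted p under 0.05, 0 by voom and 2 called without P25 replicate 2 (2.79% of all genes). The median log2 differences over members of the 3 steps were -0.05, -0.11 and -0.11. The first of these includes P25 replicate 2. Averaged over the libraries of an age, the member median of log2(FPKM + 1) relative to P21 was 0.40 at P25, 0.35 at P29, 0.25 at P35 and 0.13 at P49. Leaving out P25 replicate 2, with P29 replicate 2 kept, brought the P25 value to 0.56, so the first step was then the largest. Without that P25 library the highest members of complexes I to V differed from P25 to P29 by -0.22 (Ndufa4), -0.21 (Sdha), -0.25 (Uqcr11), -0.09 (Cox8a) and -0.19 (Atp5b). With it they differed by -0.02, 0.05, -0.06, 0.11 and 0.00, and none of them passed in either fit. Neighbouring steps share the libraries of an age.

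At P49, 1 member was called against P21. Against P21, 1 of 90 members rose and 0 fell, where 8.33% of all genes rose and 13.5% fell, and the median log2 difference was 0.13. The 1 was Ndufa1, a small subunit of complex I needed for its assembly, at 94.1, 105 and 79.5 FPKM at P21, 157, 121 and 174 at P25, 234, 171 and 185 at P29, 170.5, 172 and 161 at P35 and 140.1, 139.7 and 146 at P49. All libraries after P21 were above the P21 range, highest at P29, and P49 rose over P21 (log2 difference 0.62 ± 0.15, adjusted p = 0.0139; for P25 over P21 0.68 ± 0.15, adjusted p = 0.00889). Without P21 replicate 3 no member passed, without P25 replicate 3 or P35 replicate 2 the count was 2, and without P25 replicate 2 it was 9 (7 rose and 2 fell, against 13.9% and 22.8% of all genes). With the index of other cells as a covariate 0 members rose and 3 fell (5.73% and 6.74% of all genes), and the median log2 difference turned to -0.21. On the index the P49 libraries (2.38 to 2.86) did not overlap P21 (3.62 to 4.50). That adjusted difference is thus an extrapolation, and age and the index cannot be told apart. Both comparisons use the same P21 libraries.

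Comparisons of P49 with the ages of the highest levels were chosen after the data were seen. Against P25, 4 members fell and 0 rose (3.49% of all genes rose and 3.11% fell): Cox7a1 (log2 difference -1.36 ± 0.29, adjusted p = 0.0174), Atp5o (-0.61 ± 0.14, adjusted p = 0.0255), Atp5g1 (-0.50 ± 0.09, adjusted p = 0.00791) and Cox7b, another small subunit (-0.50 ± 0.14, adjusted p = 0.04997). The P49 libraries of each lay below all 3 P25 libraries. Without P25 replicate 2, 64 members fell, against 8.21% of all genes, and with the index of other cells as a covariate 56 fell, against 10.4%. Without P25 replicate 3 or P49 replicates 1 or 2 the count was 1, and without P25 replicate 1 or P49 replicate 3 it was 2. Against P29, 2 members fell and 0 rose (1.75% of all genes rose and 1.31% fell): Cox7a1 (log2 difference -1.69 ± 0.29, adjusted p = 0.00957) and Atp5g1 (-0.41 ± 0.09, adjusted p = 0.0287). Here the count was 0 without P29 replicate 1 or P49 replicate 1, 1 without P29 replicate 2 or 3 or P49 replicate 3, and 20 without P25 replicate 2 (4.71% of all genes fell in that fit), a library which is in neither age but in the shared estimate of the spread. Cox7a1 (26 to 183 reads per library) had the largest of these falls.

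Over all 5 ages 24 of 90 members differed, against 26.3% of all genes, and 78 did without P25 replicate 2, against 52.7%. The smallest adjusted p-values were those of Ndufa1 (0.00332), Atp5g1 (0.00525) and Cox7a1 (0.00788). Without P21 replicate 1 or 3 the count was 7, and without P25 replicate 1, P29 replicate 3, P35 replicates 1 or 3 or any P49 library it was 12 to 14. The mean was highest at P25 for 66 members, at P29 for 17, at P21 for 4, at P49 for 2 and at P35 for 1, while 15.9% of all genes were highest at P25. Without P25 replicate 2 it was highest at P25 for 81 members, at P21 for 5, at P29 for 3, at P49 for 1 and at P35 for 0. That library was the lowest of P25 for 84 of 90 members. Leaving it out raises their P25 means by construction, so this count is no separate support for a peak at P25. The share of all genes without that library is not given. The mean was lowest at P21 for 76 members, against 26.6% of all genes. P29 libraries all lay above all P21 libraries for 59 members, against 20.3% of all genes. P35 libraries did so for 51 (20.1% of all genes) and P49 libraries for 24 (19.9% of all genes).

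Transcripts of mitochondrial DNA were higher than at P21 at both P25 and P49. Of 13 mitochondrially encoded subunits 10 rose from P21 to P25 and 0 fell (12 rose without P25 replicate 2), and 12 rose and 0 fell from P21 to P49. Of all genes 8.38% rose at P25 (18.4% without P25 replicate 2) and 8.33% at P49. Summed, they were at 27260.0, 32706 and 30834 FPKM at P21, 57724, 47658 and 67193 at P25, 72804, 58599 and 65827 at P29, 66362, 82896 and 63998 at P35 and 53842, 57120.0 and 45407 at P49. All libraries after P21, P25 replicate 2 included, lay above the P21 range. The largest rise at P25 was that of mt-Co2, a catalytic subunit of complex IV (log2 difference 1.23 ± 0.16, adjusted p = 0.00101; at P49 0.90 ± 0.16, adjusted p = 0.00442), and the next was mt-Nd2 of complex I (1.14 ± 0.17, adjusted p = 0.00167; at P49 1.07 ± 0.17, adjusted p = 0.00228). mt-Nd5, mt-Nd6 and mt-Atp8 did not pass at P25. Mitochondrial genes took 3.81 ± 0.344% of reads at P21, 7.15 ± 1.20% at P25, 8.23 ± 0.867% at P29, 8.91 ± 1.30% at P35 and 6.53 ± 0.753% at P49 (SD, n = 3), and FPKM counts them in its total. Of reads on nuclear genes alone, members took 1.03 ± 0.0965%, 1.46 ± 0.313%, 1.43 ± 0.196%, 1.30 ± 0.0482% and 1.16 ± 0.0258% at the 5 ages. The difference between the mitochondrial and the nuclear genes at P49 was not tested.

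**Figure D5:**
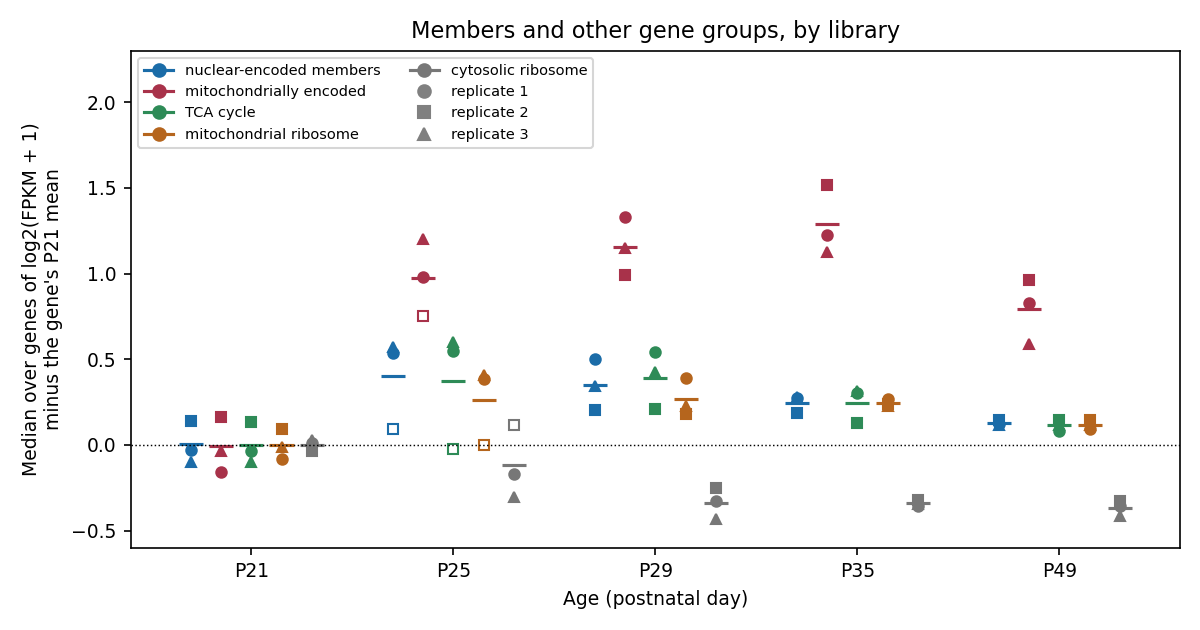
Median over genes of log2(FPKM + 1) minus the gene's P21 mean, by age and library, for nuclear-encoded members, mitochondrially encoded subunits, TCA cycle, mitochondrial ribosome and cytosolic ribosome genes (open squares, P25 replicate 2; lines, means of 3 libraries). Mitochondrially encoded genes stand at 0.59 or more in every library after P21, nuclear members return to 0.12 to 0.15 at P49, and cytosolic ribosome genes stand below 0 from P29 on.

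In other mitochondrial gene lists some genes rose from P21 to P25 and none of those tested in the following 4 lists fell. Of all genes tested 8.38% rose in that comparison, and 18.4% without P25 replicate 2. Of 16 TCA cycle genes 5 rose and 0 fell (15 rose without P25 replicate 2), led by Pdhb (log2 difference 0.91 ± 0.18, adjusted p = 0.00598) and Dlat (0.80 ± 0.18, adjusted p = 0.0102), subunits of pyruvate dehydrogenase. Of 76 mitochondrial ribosome genes 23 rose and 0 fell (56 without that library), led by Mrpl12 (0.80 ± 0.14, adjusted p = 0.00376) and Mrpl18 (0.73 ± 0.13, adjusted p = 0.00343). Assembly genes of complexes II to V had 7 of 30 rises (23 without that library), led by Higd1a (0.55 ± 0.13, adjusted p = 0.0141) and Cox19 (0.47 ± 0.14, adjusted p = 0.0303), and complex I assembly genes outside the Ndufaf names 2 of 8 (7 without that library), Tmem126a (0.41 ± 0.11, adjusted p = 0.0249) and Ecsit (0.40 ± 0.12, adjusted p = 0.0428).

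Genes for electron carriers, for metabolite carriers and for import rose in part. Of 14 cytochrome c and coenzyme Q genes 4 rose, led by Cycs, cytochrome c itself (0.84 ± 0.16, adjusted p = 0.00439), and Coq7 (0.81 ± 0.16, adjusted p = 0.00659). Of 6 ADP/ATP and phosphate carriers and pores 4 rose, led by Vdac1 (0.49 ± 0.12, adjusted p = 0.0146) and Vdac3 (0.44 ± 0.09, adjusted p = 0.0075). Of 20 import genes 8 rose, led by Timm10 (0.69 ± 0.14, adjusted p = 0.00723) and Tomm40 (0.49 ± 0.09, adjusted p = 0.0039). Of 7 genes listed for the ATP synthase dimer and its inhibitor 2 rose, Usmg5 (0.47 ± 0.13, adjusted p = 0.0255) and Minos1 (0.36 ± 0.10, adjusted p = 0.0224). Minos1 is in that list but is known as a protein of cristae junctions, not as an ATP synthase subunit or inhibitor. Without P25 replicate 2 these 4 lists had 6, 6, 16 and 5 rises and the first also 1 fall. Of all genes 8.38% rose and 10.5% fell with every library, and 18.4% rose and 27.6% fell without that one. Of 84 cytosolic ribosome genes 3 rose (largest Rpl39l, 1.02 ± 0.16, adjusted p = 0.0018, and Rpl36al, 0.36 ± 0.10, adjusted p = 0.0251) and 3 fell (largest Rps27, -0.57 ± 0.13, adjusted p = 0.011, and Rps6, -0.35 ± 0.11, adjusted p = 0.0378) at P25, and 4 rose and 48 fell without P25 replicate 2.

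Regulators of mitochondrial biogenesis did not move as 1 group: of 15 tested, 2 rose and 3 fell from P21 to P25, and 3 rose and 5 fell without P25 replicate 2. The shares of all genes that rose and fell were 8.38% and 10.5%, and 18.4% and 27.6% without that library. Esrra, a nuclear receptor for such genes, was at 18.2, 15.8 and 19.9 FPKM at P21, 33.9, 22.5 and 36.1 at P25, 32.2, 27.1 and 30.1 at P29, 26.6, 25.7 and 31.5 at P35 and 27.0, 25.8 and 27.3 at P49. Every library after P21 was above the P21 range (log2 difference 0.73 ± 0.15, adjusted p = 0.0073). Ppargc1b, a coactivator, was at 3.10, 1.34 and 3.08 FPKM at P21, 5.10, 4.25 and 4.52 at P25, 3.87, 4.06 and 5.15 at P29, 2.97, 4.38 and 4.19 at P35 and 3.65, 3.44 and 3.35 at P49. P25 lay above P21, and P21 replicate 2 was the lowest library (log2 difference 0.73 ± 0.19, adjusted p = 0.0227). The related Ppargc1a (-0.24 ± 0.19, adjusted p = 0.374), Nrf1 (0.03 ± 0.12, adjusted p = 0.868) and the mitochondrial transcription factor Tfam (0.00 ± 0.09, adjusted p = 0.991) did not pass. Gabpa, which binds the ETS core searched above, fell (-0.30 ± 0.08, adjusted p = 0.028), as did Yy1 (-0.28 ± 0.07, adjusted p = 0.0163) and the polymerase subunit Polg2 (-0.55 ± 0.18, adjusted p = 0.0466). Of 8 adipocyte markers 0 rose and 1 fell, Cidec (-0.80 ± 0.25, adjusted p = 0.0455; Plin1 0.48 ± 0.20, adjusted p = 0.109), and 5 rose and 0 fell without P25 replicate 2. Summed, the 8 adipocyte markers were at 15385 to 18962 FPKM at P21 and at 22673, 12677 and 20974 in P25 replicates 1, 2 and 3. P25 replicate 2 was the lowest of the 15 libraries on this sum. In P25 replicates 1 and 3 the median log2 level relative to P21 averaged 0.41 over these markers and 0.56 over members. The part of adipocyte RNA in the member levels was not tested. In the brown and beige list, which holds the members Cox8b and Cox7a1, 1 of 3 tested genes rose, Cox8b itself.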

How the data were processed

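The authors deposited FPKM for 35275 genes in 15 libraries. The submitters' processing notes name CASAVA, FastQC, STAR 2.5, HTSeq 0.6.1 and the build mm10 (GRCm38). Which annotation release was used is not given in the sources used here. FPKM times the deposited gene length gave whole reads (within 0.05 read) for 100% of genes.

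Values went into limma 3.58.1 (statmod 1.5.0, R 4.3.3) as log2(FPKM + 1) for the 12259 genes that reached 1 FPKM in 3 libraries or more. The fit held all 15 libraries and a mean for each age, with trended robust empirical Bayes and Benjamini-Hochberg adjustment over all genes tested, at an adjusted p of 0.05. Differences are on that scale, which understates changes of low genes, and are given ± SE. Low FPKM rest on few reads, and counting error is part of the spread.

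The members and all gene lists were chosen with earlier results of these data known. Named genes were, per complex, the highest member, the 2 largest called rises and falls above 5 FPKM, all complex II subunits, isoform pairs, the largest called change of other comparisons and, per other list, the 2 largest called changes in each direction and a short set of regulators. Other members appear in lists of all called or not called members, named after their values were seen. Alternatives were quantile and median-ratio scaling, a pseudocount of 0.1, no filter, no trend, library weights, voom on recovered reads, the index of other cells as a covariate, a block for the replicate number, a fit of the 2 ages alone, and leaving out each library. Same-numbered libraries deviated together in all 3 pairs for P25 with P29 and P29 with P35, and the labels state no pairing. Figures used Python 3.11.15, pandas 2.3.3 and matplotlib 3.10.9.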

Additional observations from a re-analysis of the deposited data

How the results depend on the processing

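Counts of members called are given by setting, against 42 for P25 against P21, 0 for P49 against P35, 1 for P49 against P21, 24 over all 5 ages and, among comparisons chosen after the data were seen, 4 for P49 against P25 and 2 for P49 against P29. Library weights gave 84, 6, 18, 83, 72 and 40 in this order, and the index of other cells as a covariate gave 6, 3, 3, 47, 56 and 26. The weight of P25 replicate 2 was 0.0994, against 0.635 to 2.31 for the other libraries, so the weighted fit is close to leaving it out. With only the 2 ages, P25 against P21 gave 0, P49 against P35 gave 3, P49 against P21 gave 7, P49 against P25 gave 0 and P49 against P29 gave 10. Without the filter P25 against P21 gave 25, all 5 ages 12 and P49 against P29 gave 1. Quantile normalization gave 1 for P49 against P29, and voom on recovered reads 2 for P49 against P21. Leaving out 1 library at a time gave 7 to 83 for P25 against P21, 0 to 2 for P49 against P35, 0 to 9 for P49 against P21, 7 to 78 over all 5 ages, 1 to 64 for P49 against P25 and 0 to 20 for P49 against P29. Apart from some fits with the index or without P25 replicate 2, the share of all genes called is not given for these settings. The same holds for the block below, so these counts are not results about the members alone. The causes of these moves were not tested. P29 against P25 and P35 against P29 gave 0 in every setting run.

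With the replicate number as a block the counts were 40 for P25 against P21, 3 for P49 against P21, 20 over all 5 ages, 3 for P49 against P25, 2 for P49 against P29 and 0 for the others. For P29 against P25 and P35 against P29, where same-numbered libraries deviated together, the block changed no call. For P21 with P25 none of the 3 pairs did so.

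With the index of other cells as a covariate 2 log2 differences reversed with a call, Cox4i2 at P25 against P21 to 0.87 and Sdha at P49 against P21 to -0.42. Only P25 replicate 2 of P25 and no P49 library lay in the P21 range of the index. Age and the index are thus largely confounded in the first comparison and cannot be told apart in the second. Members under 1 FPKM in most libraries rest on few reads, so a small difference in Cox6a2 or Cox6b2 was not detectable at this depth.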
